A study of Mus musculus with 4 samples.

Results

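The genes described here carry pyruvate into the mitochondrion, run the tricarboxylic acid (TCA) cycle and feed or drain it, a process called anaplerosis where it refills the cycle. They were taken from a list of 34 gene symbols, and each gene was read from the probe set that maps to that symbol alone, or from the one with the highest mean over the arrays where there were several. In all, 33 of the 34 were measured, among 19938 genes. Mpc2, the partner subunit of the pyruvate carrier, had no such probe set and was not analysed here. No filter on low values was applied, so all 33 enter each count.

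The cells were leukemia stem cells of mice with a transplanted chronic myeloid leukemia. Marrow of WT donors (C57BL/6) or of Hif1a-/- donors, all given 5-fluorouracil beforehand, received the BCR-ABL oncogene together with green fluorescent protein by retrovirus and was grafted into C57BL/6 recipients. BCR-ABL is the constitutively active tyrosine kinase of this leukemia. At 14 days the recipients' marrow was sorted for fluorescent cells without lineage markers that carried c-Kit and Sca-1. The labels give an age of 8 weeks and the strain C57BL/6 (B6) for all samples, and every sample of both genotypes carries BCR-ABL. There were 2 WT and 2 Hif1a-/- samples, each on 1 Affymetrix whole-transcript array. They are labelled biological replicates, with no word on whether animals were pooled or separate, so a p-value here reflects only how much these samples vary, which may be technical. How the Hif1a allele was made, and in which cells it is lost, is not given in the sources used here.

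Pyruvate, the end product of glycolysis, crosses the inner mitochondrial membrane through a carrier and is turned into acetyl-CoA by the pyruvate dehydrogenase complex. Pyruvate dehydrogenase kinases switch that complex off and phosphatases switch it on, which sets how much glucose carbon is burned and how much leaves as lactate. HIF-1, the oxygen-regulated transcription factor whose alpha subunit is encoded by Hif1a, is known to induce glycolytic genes and Pdk1 under low oxygen.

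Values are log2 expression after robust multi-array averaging (RMA), so a difference of 1 is a doubling. The median over genes was 8.53 to 8.57 on the 4 arrays. Hif1a itself read 11.34 and 11.50 on the WT arrays and 11.25 and 11.39 on the Hif1a-/- arrays, and these overlapped (difference -0.09 ± 0.13 (SE)). A probe set that spans a transcript may still read a partly deleted gene, so this reading checks the genotype labels only weakly. Of the sort's own markers, Kit read 10.32 and 11.07 in WT and 10.95 and 10.61 in Hif1a-/- cells, while Ly6a, which encodes Sca-1, had no probe set of its own symbol. The WT arrays stood apart from each other more than the Hif1a-/- arrays did, with a median absolute gap per gene of 0.19 against 0.11.

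The genes of pyruvate entry, the TCA cycle and anaplerosis showed no difference between Hif1a-/- and WT cells that passed the test. By limma, 0 of the 33 passed at an adjusted p of 0.05, a threshold met by 0% of all genes. At an unadjusted p under 0.05, 1 of the 33 was lower, Pdk3, and 0 were higher, beside 0.978% of all genes lower and 0.697% higher. The median difference, Hif1a-/- minus WT, was 0.03 over the 33 genes and 0.03 over all genes. A higher mean in Hif1a-/- cells was seen in 22 of the 33, beside 61.4% of all genes, and a lower mean in 11, beside 38.6%. The differences ran from -0.39 for Pdk3 to 0.24 for Aco1. This balance rested on WT replicate 1, without which 26 of the 33 had a lower mean (44.2% of all genes) and the median was -0.09. Without WT replicate 2 the median was 0.20, and 11 of the 33 were higher at an unadjusted p under 0.05 (11.6% of all genes).

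Across the arrays, these genes spread mainly within the WT samples. WT replicate 2 read above WT replicate 1 in 29 of the 33 genes, where 45.4% of all genes did, and the median step was 0.26, against -0.03 over all genes. WT replicate 1 was the lowest of the 4 arrays in 25 of the 33 (32.1% of all genes). Both Hif1a-/- arrays lay between the WT arrays in 18 of the 33 (32.9% of all genes). The Hif1a-/- arrays differed by less, with a median of -0.09 for replicate 2 minus replicate 1, and replicate 2 was the higher in 8 of the 33 (50.4% of all genes). No test was made of these counts, since members share arrays and are not replicates.

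**Figure D1:**
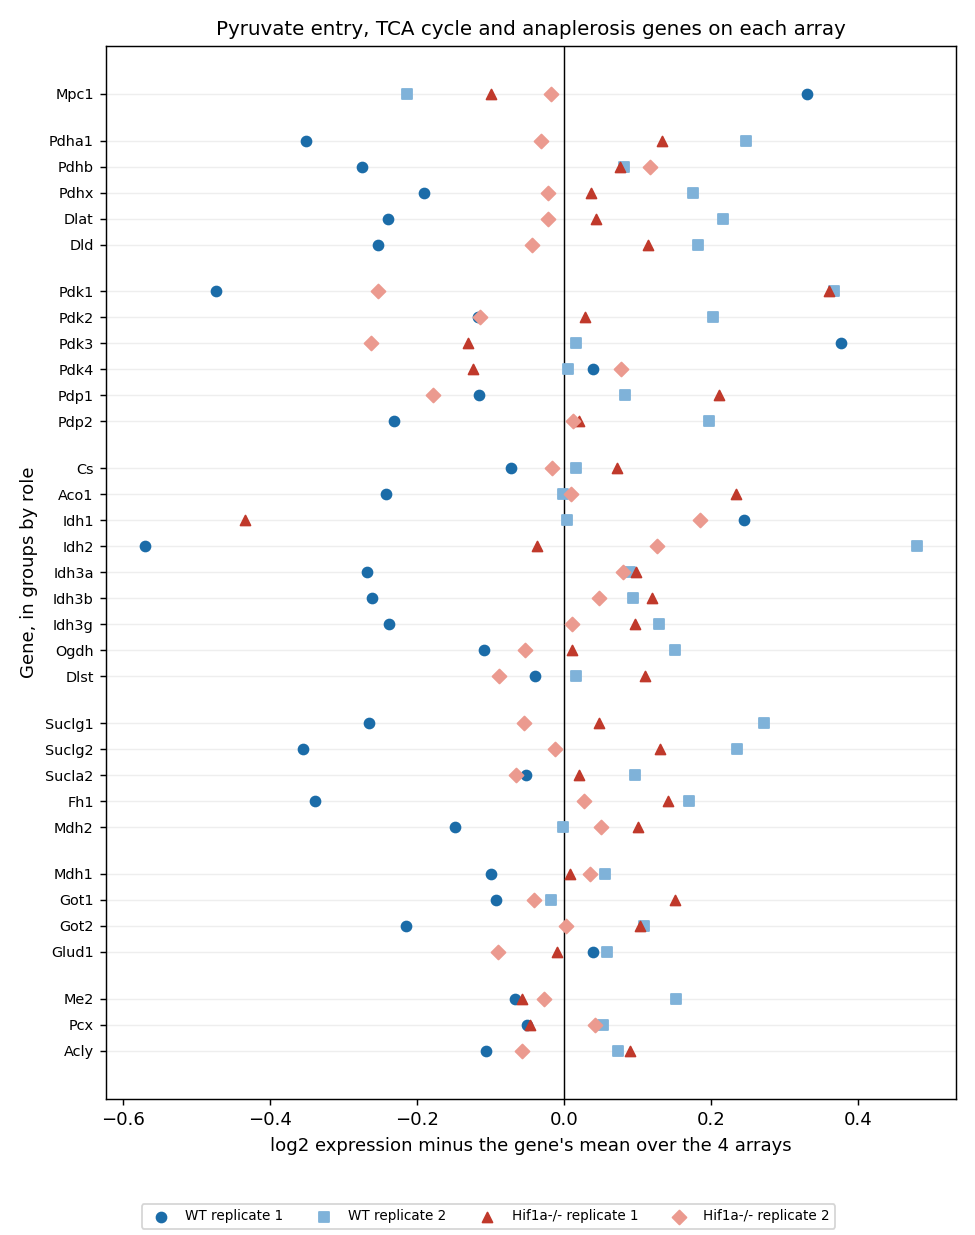
Each row is 1 gene and each point 1 array, as log2 expression minus that gene's mean over the 4 arrays, with genes in groups by role. WT replicate 1 (dark circles) is lowest in 25 of the 33 genes, and Pdk3, Aco1, Mdh2 and Glud1 are the 4 genes in which the genotypes do not overlap.

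The genotypes did not overlap in 4 of the 33 genes. Pdk3 and Glud1 read lower on each Hif1a-/- array than on each WT array, a count of 2 where 9.05% of all genes did so. Aco1 and Mdh2 read higher on each, a count of 2 where 15.7% of all genes did. In the same 4 genes the difference between genotypes was larger than both gaps between arrays of 1 genotype, which held for 14.6% of all genes. For Aco1 and Mdh2 it exceeded the WT gap by little: 0.243 against 0.241 for Aco1, and 0.150 against 0.147 for Mdh2.

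At the entry to the mitochondrion, Mpc1, a subunit of the pyruvate carrier, read 11.91 and 11.37 on WT replicates 1 and 2 and 11.48 and 11.57 on Hif1a-/- replicates 1 and 2. It ran against most of the other genes, with WT replicate 1 highest and WT replicate 2 lowest. Its WT mean was 11.64 ± 0.38 (SD, n = 2) and its Hif1a-/- mean 11.52 ± 0.06 (SD, n = 2), a difference of -0.12 with a 95% interval from -0.58 to 0.35.

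The pyruvate dehydrogenase complex followed the WT spread in each of its 5 subunit genes. Pdha1, the catalytic E1 alpha subunit, read 10.64 and 11.24 in WT and 11.13 and 10.96 in Hif1a-/- cells. Pdhb, the E1 beta subunit, read 9.37 and 9.73 in WT and 9.72 and 9.77 in Hif1a-/- cells. WT replicate 1 was low for both, and the other 3 arrays lay close together for Pdhb. Dlat, the E2 acetyltransferase core, read 10.31 and 10.76 in WT and 10.59 and 10.53 in Hif1a-/- cells. Dld, the E3 dehydrogenase that other complexes also use, read 9.98 and 10.41 against 10.34 and 10.19. Pdhx, which tethers E3 to the core, read 8.61 and 8.97 against 8.83 and 8.78. In all 5 genes WT replicate 1 was the lowest array, and in 4 both Hif1a-/- arrays lay inside the WT range. The differences between genotypes were 0.10 for Pdha1, 0.19 for Pdhb, 0.02 for Dlat, 0.07 for Dld and 0.01 for Pdhx, and their standard errors were 0.16 to 0.21.

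Of the 4 pyruvate dehydrogenase kinases, Pdk1 had a higher mean in Hif1a-/- cells and Pdk2, Pdk3 and Pdk4 a lower one. Pdk1, the isoform best known as a HIF-1 target, read 9.03 and 9.87 in WT and 9.87 and 9.25 in Hif1a-/- cells. Each genotype held 1 low and 1 high array, so the groups overlapped almost fully. The means were 9.45 ± 0.59 (SD, n = 2) and 9.56 ± 0.43 (SD, n = 2), and the difference was 0.11 with a 95% interval from -0.65 to 0.86, an interval that holds both a clear loss and a clear gain of Pdk1 transcript. The sign turned without WT replicate 1 (-0.31) or without Hif1a-/- replicate 1 (-0.20).

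Pdk3, a kinase of the same family, read 11.90 and 11.54 in WT and 11.39 and 11.26 in Hif1a-/- cells. Both Hif1a-/- arrays were below both WT arrays, and WT replicate 1, low for most of the other genes, was the highest array here. The WT mean was 11.72 ± 0.26 (SD, n = 2) and the Hif1a-/- mean 11.33 ± 0.09 (SD, n = 2), a difference of -0.39 ± 0.16 (SE), or 1.31-fold lower. The 95% interval ran from -0.78 to -0.01, and limma's p was 0.0465 unadjusted and 0.999 adjusted over all genes. The difference was -0.21 without WT replicate 1 and -0.57 without WT replicate 2. Without WT replicate 2 its adjusted p was 0.0127, in a fit that called 7.23% of all genes and 2 of the 33, Pdk3 and Idh2. Its unadjusted limma p was 0.132 without WT replicate 1, 0.0949 without Hif1a-/- replicate 1 and 0.222 without Hif1a-/- replicate 2, so that call ended in each of these. It also ended with dim genes left out (0.0547), after a second quantile normalization (0.0609) and with the replicate number as a block (0.0505).

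The other kinases had smaller differences. Pdk2 read 8.70 and 9.02 in WT and 8.84 and 8.70 in Hif1a-/- cells (difference -0.09). Pdk4, an isoform raised by fasting and fat oxidation in other tissues, read 7.45 and 7.42 against 7.29 and 7.49 (difference -0.05). Pdk4 read below the array medians, where RMA draws differences together. Of the phosphatases that reactivate the complex, Pdp1 read 9.71 and 9.91 against 10.04 and 9.65, and Pdp2 read 8.30 and 8.73 against 8.55 and 8.54. Both had a difference of 0.03, with groups that overlapped.

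**Figure D2:**
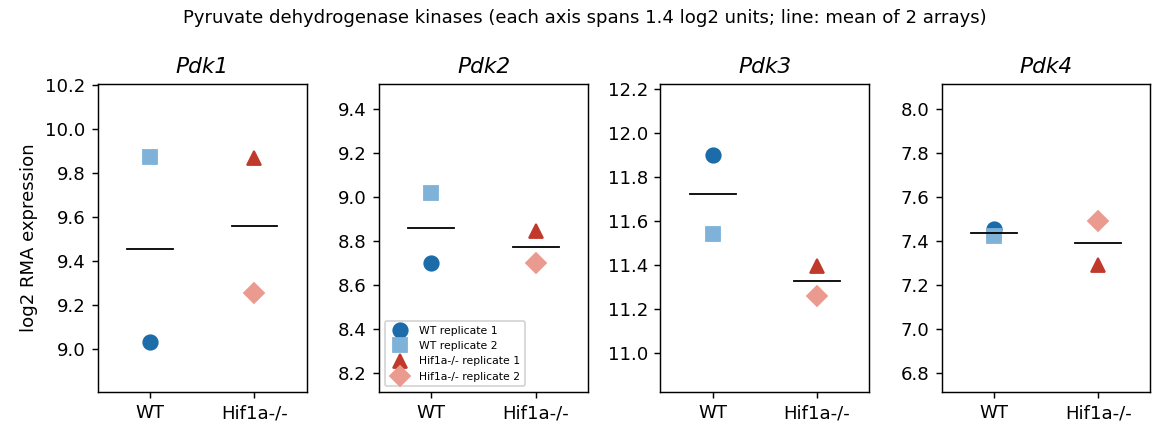
Log2 RMA expression of the 4 pyruvate dehydrogenase kinase genes on each array, with lines at the means of 2 arrays and each axis spanning 1.4 log2 units. Pdk3 is the kinase gene whose genotypes do not overlap, and Pdk1 has 1 high and 1 low array in each genotype.

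The sequence before the start of Pdk1 and of Pdk3 is shown because these kinases differ in their readings and one is a textbook HIF-1 target. HIF-1 binds a short core, ACGTG or GCGTG, read on either strand. The 250 bases before each gene's first listed start, from RefSeq on build GRCm38.p6, are given 5′ to 3′ on the gene's strand. Capitals mark every match to either core or its complement. The Pdk1 window is chr2:71872974-71873223 on the plus strand, and the Pdk3 window is chrX:93832151-93832400 on the minus strand. Both lie upstream of the gene, outside its exons as far as that start is concerned.
Pdk1: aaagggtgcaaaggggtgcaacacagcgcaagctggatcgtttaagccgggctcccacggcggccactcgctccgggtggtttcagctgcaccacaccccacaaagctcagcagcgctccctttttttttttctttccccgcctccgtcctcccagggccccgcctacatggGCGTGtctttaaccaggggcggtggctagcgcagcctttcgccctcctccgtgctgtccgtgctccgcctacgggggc
Pdk3: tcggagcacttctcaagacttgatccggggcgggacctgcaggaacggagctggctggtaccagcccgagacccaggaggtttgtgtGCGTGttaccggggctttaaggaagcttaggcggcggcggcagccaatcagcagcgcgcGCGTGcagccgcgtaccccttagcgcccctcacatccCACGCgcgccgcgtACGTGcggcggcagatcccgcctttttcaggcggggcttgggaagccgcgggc

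The Pdk1 window held 1 match, 78 bases before the start, and the Pdk3 window held 4, at 163, 104, 67 and 53 bases before it. Of these 4, 1 was ACGTG and 3 were GCGTG or its complement. Pdha1 and Suclg1, whose genotypes overlapped, held 3 matches each. Of the other genes without overlap, Glud1 held 3, Mdh2 1 and Aco1 0. The number of matches was not set beside that of all genes. Among the measured genes of the list, 30 had a promoter entry, and 22 of the 30 (73.3%) held at least 1 match in any of their windows, beside 49.9% of the 15614 tested genes with an entry and 41.5% of all 27025 genes in the table. Idh3a, Pdp1 and Me2 had no entry. A match of 5 letters is a description of the sequence and says nothing on whether HIF-1 binds there in these cells.

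From citrate to succinyl-CoA, 7 of 9 genes had a higher mean in Hif1a-/- cells and 0 passed the test. Cs, citrate synthase, read 12.27 and 12.35 in WT and 12.41 and 12.32 in Hif1a-/- cells, one of the narrower spreads of the list. The 3 genes of the NAD-dependent isocitrate dehydrogenase, which commits isocitrate to the cycle, shared a pattern. Idh3a read 11.05 and 11.41 in WT and 11.42 and 11.40 in Hif1a-/- cells, Idh3b 11.53 and 11.89 against 11.91 and 11.84, and Idh3g 12.42 and 12.79 against 12.76 and 12.67. WT replicate 1 was low by about the same step in all 3, and the other arrays lay together. The WT step was 0.36 for Idh3a, 0.36 for Idh3b and 0.37 for Idh3g. The differences of 0.18, 0.17 and 0.11 came down to 0.00003, -0.01 and -0.08 without WT replicate 1.

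The NADP-dependent isocitrate dehydrogenases, which make NADPH, ran differently from each other. Idh2, the mitochondrial enzyme, read 11.04 and 12.09 in WT and 11.57 and 11.74 in Hif1a-/- cells. Its WT arrays enclosed both Hif1a-/- arrays, and the WT gap of 1.05 was the widest of the 33 genes. Its difference was 0.09 with a 95% interval from -0.68 to 0.86, and it turned to -0.44 without WT replicate 1 and grew to 0.61 (adjusted p 0.00865 by limma) without WT replicate 2. Idh1, the cytosolic enzyme, read 11.82 and 11.58 in WT and 11.14 and 11.76 in Hif1a-/- cells. Hif1a-/- replicate 1 alone was low, and the other 3 arrays lay close together. The difference of -0.25 ± 0.22 (SE) turned to 0.06 without Hif1a-/- replicate 1.

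Aco1, the cytosolic aconitase that also acts as an iron-regulatory protein, read 9.87 and 10.11 in WT and 10.34 and 10.12 in Hif1a-/- cells. The genotypes touched without overlapping, with WT replicate 2 at 10.107 and Hif1a-/- replicate 2 at 10.118. The WT mean was 9.99 ± 0.17 (SD, n = 2) and the Hif1a-/- mean 10.23 ± 0.16 (SD, n = 2), a difference of 0.24 ± 0.15 (SE), with an unadjusted limma p of 0.153. Without WT replicate 1 it was 0.12. Ogdh and Dlst, the E1 and E2 components of the oxoglutarate dehydrogenase complex, differed by -0.04 and 0.02. Ogdh read 11.46 and 11.72 against 11.58 and 11.51, and Dlst read 10.85 and 10.91 against 11.003 and 10.80, both with overlap.

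From succinyl-CoA to oxaloacetate, Mdh2 was the gene without overlap. Mdh2, the mitochondrial malate dehydrogenase that closes the cycle, read 12.88 and 13.02 in WT and 13.13 and 13.08 in Hif1a-/- cells. The step between genotypes was small, 0.15 ± 0.13 (SE), with a 95% interval from -0.15 to 0.46. Without WT replicate 1 it was 0.08.

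The 3 subunits of succinyl-CoA synthetase, which makes GTP or ATP at that step, differed by -0.05 to 0.12. Suclg1, the subunit common to both forms, read 10.12 and 10.66 in WT and 10.43 and 10.33 in Hif1a-/- cells. Suclg2, of the GTP form, read 10.05 and 10.64 against 10.54 and 10.39. Sucla2, of the ATP form, read 10.23 and 10.38 against 10.31 and 10.22. WT replicate 1 was low for Suclg1 and Suclg2, and Sucla2 spread less. Fh1, fumarase, read 10.998 and 11.51 in WT and 11.48 and 11.36 in Hif1a-/- cells, again with the low array in WT, and differed by 0.17 with a 95% interval from -0.28 to 0.62.

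Among the genes of the malate-aspartate shuttle and glutamate entry, Glud1, glutamate dehydrogenase, read 11.63 and 11.65 in WT and 11.58 and 11.50 in Hif1a-/- cells. Both Hif1a-/- arrays were lower, by a difference of -0.10 ± 0.12 (SE), or 1.07-fold, with an unadjusted limma p of 0.447. It ranged from -0.14 to -0.06 when each array was left out. Got1, the cytosolic aspartate transaminase, read 11.12 and 11.20 against 11.37 and 11.17, and Got2, its mitochondrial counterpart, 12.70 and 13.02 against 13.02 and 12.92. They differed by 0.11 each, with overlap. Mdh1, the cytosolic malate dehydrogenase, read 10.99 and 11.15 against 11.10 and 11.13, a difference of 0.04.

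The genes that refill or drain the cycle had small differences. Pcx, pyruvate carboxylase, which makes oxaloacetate from pyruvate, read 9.76 and 9.86 in WT and 9.76 and 9.85 in Hif1a-/- cells. Its genotypes coincided, with a difference of -0.004 and a 95% interval from -0.30 to 0.30. Acly, which splits exported citrate for lipid synthesis, read 10.88 and 11.06 against 11.08 and 10.93, a difference of 0.03. Me2, the mitochondrial malic enzyme, read 10.81 and 11.03 against 10.82 and 10.85, a difference of -0.08. A second probe set was present for Got2 and Suclg2 and differed by 0.13 and 0.14, beside 0.11 and 0.12 for those used.

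**Figure D3:**
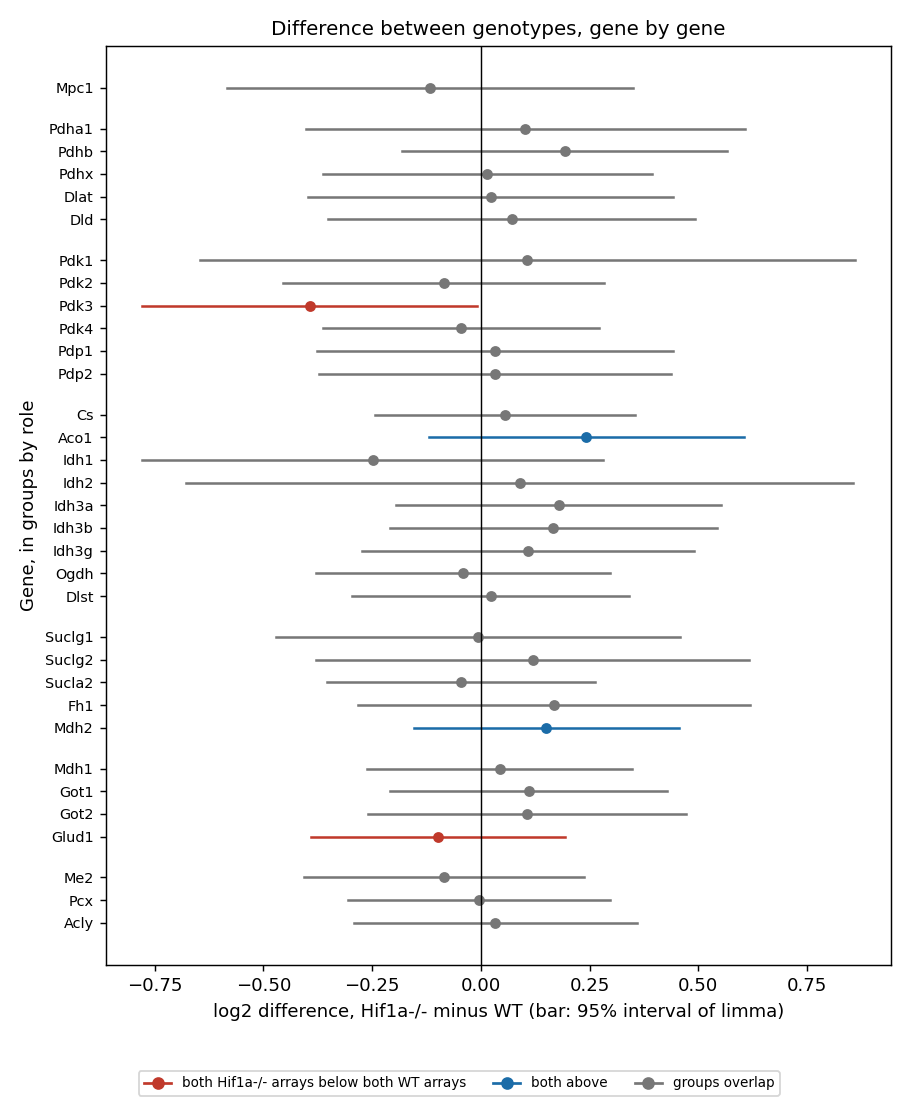
Log2 difference, Hif1a-/- minus WT, of each of the 33 genes with its 95% interval from limma, coloured by whether the arrays of the genotypes overlap. The interval of Pdk3, from -0.78 to -0.01, is the one that leaves out 0, and those of Pdk1 and Idh2 are the widest.

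A further 37 genes of pyruvate, cycle, glutamine and citrate metabolism were listed as neighbours of the pathway, and 33 of them were analysed here. In these neighbours, 0 passed the test adjusted over all genes. The mean was higher in Hif1a-/- cells for 27 (61.4% of all genes) and lower for 6 (38.6% of all genes), with a median difference of 0.09. That median was 0.02 without WT replicate 1 and 0.21 without WT replicate 2. WT replicate 1 was the lowest array in 20 of the 33 neighbours (32.1% of all genes). The genotypes did not overlap in 7, of which 5 of 33 were higher (15.7% of all genes) and 2 of 33 lower (9.05% of all genes). Acss1, a mitochondrial acetyl-CoA synthetase that makes acetyl-CoA from acetate, read 10.15 and 10.95 in WT and 11.30 and 11.11 in Hif1a-/- cells. It was the 1 neighbour with an unadjusted limma p under 0.05 (0.0417), with a difference of 0.65 ± 0.26 (SE), which was 0.25 without WT replicate 1 and 1.06 without WT replicate 2.

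The next 4 neighbours by p were smaller. Glul, glutamine synthetase, read 11.54 and 11.47 in WT and 11.29 and 11.30 in Hif1a-/- cells (difference -0.21), though its second probe set differed by -0.04 with overlap. Slc25a11, the oxoglutarate carrier, read 12.03 and 11.95 against 11.82 and 11.78 (-0.19). Dhtkd1, a relative of Ogdh, read 7.44 and 7.38 against 7.63 and 7.57 (0.19). Sdhd, a membrane anchor of succinate dehydrogenase, read 10.87 and 11.14 against 11.28 and 11.13 (0.20), with overlap.

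Glycolysis enzymes and respiratory chain genes, the parts of energy metabolism on either side, were set beside these genes. Each Hif1a-/- array read below each WT array in 11 of 14 measured glycolysis enzymes and in 2 of the 33 genes of pyruvate entry and the cycle, where 9.05% of all genes did. The median differences were -0.27 and 0.03. In the respiratory chain that count was 0 of 23, with a median of 0.08. There 7 of 23 read higher on each Hif1a-/- array (15.7% of all genes), against 0 of 14 glycolysis enzymes and 2 of the 33. The respiratory chain median rested on WT replicate 1: it was -0.01 without that array and 0.15 without WT replicate 2. For the glycolysis enzymes these medians were -0.22 and -0.23. The step from WT replicate 1 to WT replicate 2 was 0.17 in the respiratory chain and -0.03 in the glycolysis enzymes, against 0.26 here. These are descriptions, and the difference between the lists was not tested.

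Marker genes of other cells and of cell state also differed between the arrays. The mean log2 level of 8 gate and stem cell genes was 9.11 and 10.004 in WT and 9.21 and 9.51 in Hif1a-/- cells. In both genotypes 7 of 8 were higher on replicate 2 than on replicate 1 (45.4% of all genes in WT and 50.4% in Hif1a-/- cells). That of 11 granulocyte and monocyte genes was 12.65 and 12.04 against 12.46 and 12.36, and Camp, Ltf and Itgam, genes of later granulocytes, read 13.35 and 11.40, 13.52 and 11.47, and 11.88 and 10.27 on WT replicates 1 and 2. In that list 5 of 11 went the other way: Mpo, Prtn3, Elane and Ctsg, granule genes of earlier granulocytes, and Csf1r read 12.97 and 13.67, 11.89 and 12.56, 13.43 and 13.77, 13.02 and 13.34, and 8.68 and 9.04 on these arrays. That of 9 proliferation genes was 11.65 and 11.86 against 11.90 and 11.76, with WT replicate 1 the lowest array in 7 of 9 (32.1% of all genes). The 9 erythroid genes were at 10.27 and 10.10 against 10.78 and 10.48. All 9 had a higher mean in Hif1a-/- cells, but unevenly. The differences were 0.84 for Rhag, 0.69 for Sptb and 0.68 for Epor, but 0.12 for Slc4a1, 0.13 for Alas2 and 0.12 for Gata1, with overlap in these last. The 9 mast cell and basophil genes were at 11.46 and 11.47 against 10.78 and 11.18. Their differences were uneven, -1.30 for Mcpt4 and -0.87 for Tpsb2 but -0.09 for Mcpt8, -0.02 for Prss34 and -0.12 for Fcer1a. The 6 dendritic genes were at 9.90 and 9.88 against 9.42 and 9.34, with Siglech alone higher in Hif1a-/- cells (0.19). The 7 lymphoid genes were at 7.90 and 7.32 against 7.73 and 7.52, and the 8 stromal and endothelial genes at 8.44 and 8.32 against 8.34 and 8.42. No marker reads 0 on this scale. The part of these in the differences above was not tested, and in sorted bulk samples a change in the mix of cells and a change in RNA per cell cannot be told apart.

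**Figure D4:**
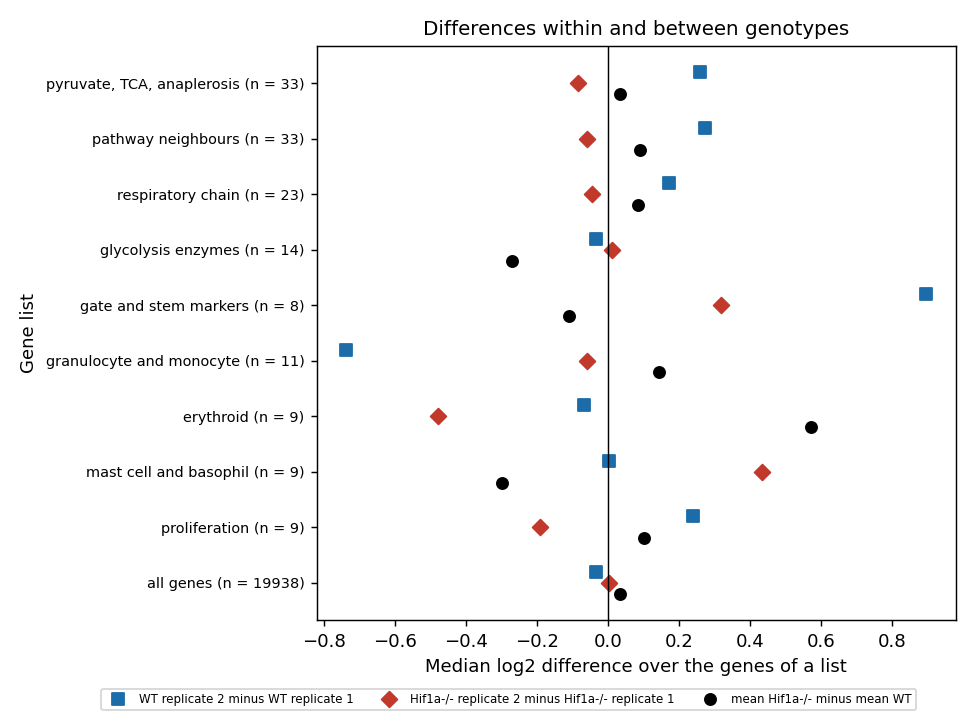
Median log2 difference over the genes of each list between the 2 WT arrays (squares), between the 2 Hif1a-/- arrays (diamonds) and between the genotype means (circles), with the number of genes measured. For pyruvate, TCA and anaplerosis genes the WT step (0.26) is larger than the difference between genotypes (0.03), and for glycolysis enzymes the order is turned (-0.03 and -0.27).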

How the data were processed

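The table the authors deposited holds log2 expression values of 35556 probe sets on 4 arrays, made with Affymetrix Expression Console 1.1 and RMA, per the submitters' processing notes. RMA normalizes by quantiles, so a change of total RNA per cell is lost, and differences of dim genes are drawn together. The platform annotation gave 21789 probe sets 1 symbol and 1621 several, and left 12146 unnamed. The 19938 genes were fitted with limma 3.58.1 (lmFit, eBayes; R 4.3.3) on genotype alone, with 2 residual and 4.46 prior degrees of freedom, and Benjamini-Hochberg adjustment at 0.05. The code of the fit was tested on simulated data of independent genes without array effects, which does not measure its error rate on these arrays. An exact two-sided permutation test of 2 against 2 arrays cannot go below p = 0.333. Named genes are every measured gene of the list, Hif1a and the 5 neighbours of smallest p; marker genes were picked with values in view. Members and lists were chosen with earlier results of these data known. Alternatives were a filter at the 25th percentile, repeated quantile normalization, centring on array medians, a trended robust prior, array weights, averaged probe sets, a replicate block, leaving out each array, and a threshold of 0.10.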

Additional observations from a re-analysis of the deposited data

How the results depend on the processing

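With all 4 arrays kept, the sign of a gene's difference held in 226 of 230 combinations of a measured gene of the list and another setting. The exceptions were Pcx under a second quantile normalization (0.0020) and Pdhx (-0.011), Dlat (-0.0035) and Dlst (-0.0032) with array medians centred. Most of the combinations could not turn a sign. The filter, the trended robust prior, array weights and the replicate block leave each difference as it was. Averaged probe sets changed it for Got2 and Suclg2 alone, so 226 of 230 is no measure of robustness. No gene of the list or its neighbours passed an adjusted p of 0.10. The unadjusted call of Pdk3 ended (0 genes) with dim genes left out, under a second quantile normalization and with the replicate number as a block. Genes above without overlap were 6 after a second quantile normalization and 1 with centred medians, beside 2 in the main fit. Among the neighbours they were 8 after the former, beside 5 in the main fit. The share of all genes, 15.7% in the main fit, was not counted under these settings. These counts are therefore no result about the genes of the list. The unadjusted call of Acss1 ended (0) with centred medians. The arrays of a replicate block share a number in their labels. Over all genes their deviations were not correlated (-0.0072, with 2 pairs), which cannot show whether some genes shifted together. Of the 8 gate and stem cell genes, replicate 2 read above replicate 1 in 7 in WT (45.4% of all genes) and in 7 in Hif1a-/- cells (50.4%). For the 33 genes of the list these counts were 29 and 8. The replicate block called 47 of all genes, 0 of the list and 0 of the neighbours.

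Leaving out 1 array mattered more, and the lone array of a genotype was then assumed to vary like the others. Adjusted calls numbered 0 to 2 in the list and 0 to 4 in the neighbours, the highest without WT replicate 2. Unadjusted calls in the list were 0 to 2 lower and 0 to 11 higher, and in the neighbours 0 to 4 lower and 0 to 13 higher. Genes with a lower mean were 5 to 26 and with a higher mean 7 to 28. The 26 came without WT replicate 1, where 44.2% of all genes had a lower mean. That share was not counted without each of the other arrays. The median difference was -0.086 without WT replicate 1 and 0.20 without WT replicate 2. Without WT replicate 2, 11.6% of all genes were higher at an unadjusted p under 0.05. The sign held in 8 genes of the list (Pdhb, Pdk3, Cs, Aco1, Idh3a, Mdh2, Got1 and Glud1) and turned in 25, in 17 of them without WT replicate 1. Their lowest and highest values with 1 array left out were -0.39 to 0.16 for Mpc1, -0.20 to 0.40 for Pdha1, -0.17 to 0.20 for Pdhx, -0.21 to 0.25 for Dlat and -0.15 to 0.29 for Dld. They ran from -0.31 to 0.53 for Pdk1, -0.24 to 0.074 for Pdk2, -0.15 to 0.055 for Pdk4, -0.16 to 0.23 for Pdp1 and -0.18 to 0.25 for Pdp2. The range was -0.56 to 0.061 for Idh1, -0.44 to 0.61 for Idh2, -0.011 to 0.35 for Idh3b, -0.075 to 0.29 for Idh3g and -0.17 to 0.088 for Ogdh. Further ranges were -0.076 to 0.12 for Dlst, -0.28 to 0.26 for Suclg1, -0.18 to 0.41 for Suclg2, -0.12 to 0.028 for Sucla2 and -0.086 to 0.42 for Fh1. The last ranges were -0.034 to 0.12 for Mdh1, -0.056 to 0.27 for Got2, -0.19 to 0.024 for Me2, -0.056 to 0.048 for Pcx and -0.056 to 0.12 for Acly. Overlap between genotypes is not given with 1 array left out, since 1 array cannot show it in the same way. The number of arrays limits the precision: the median standard error was 0.16 over the 33 genes.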
